A study of Mus musculus with 12 samples.

Results

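The genes described here encode the constitutive proteasome. They were taken from the skin count data as the entries whose symbol begins with Psma, Psmb, Psmc, Psmd, Psme, Psmf or Psmg directly followed by a digit, without the inducible subunits Psmb8, Psmb9 and Psmb10 and without symbols containing "-ps", which gave 47 of 23282 entries. Of these, 31 encode structural subunits of the 20S core particle and the 19S regulatory particle, and the others encode assembly chaperones, activators, an inhibitor and tissue-restricted subunits. One entry, Psmc3ip, was taken only because of its symbol and encodes a protein of meiotic recombination that binds PSMC3. The skin came from wild-type male C57BL/6J mice that were 5 weeks old at the start, with 1 library per mouse. The AD group (n = 5), a model of atopic dermatitis, was kept on normal chow, and the HF + AD group (n = 7; labelled AD+OB) was fed a high-fat diet with 60 kcal% fat (D12492) for 4 weeks before sensitization and for 10 weeks in total. Both groups received 0.5% 2,4-dinitrochlorobenzene (DNCB), a contact sensitizer, in acetone and olive oil on the dorsal skin for 6 weeks, so the comparison is between diets in DNCB-treated skin. The numbering of the deposited AD+OB libraries matches the place that the series description gives to a further high-fat group treated with GHJGS, and since the labels name no such treatment, they were followed here and the difference was left unresolved. AD-like lesions evoked by a hapten are a model of dermatitis, and no untreated skin was analysed here.

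The proteasome degrades proteins tagged with ubiquitin. Its 20S core stacks outer rings of alpha subunits, which gate the entry pore, on inner rings of beta subunits, of which Psmb5, Psmb6 and Psmb7 carry the active sites. The 19S particle caps the core, binds ubiquitin chains, removes them, and unfolds the substrate with a ring of ATPases. In the epidermis, as in other tissues, the subunit genes are broadly expressed, and transcription factors of the NRF family can raise many of them together through antioxidant response elements (AREs).

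To see what the promoters share, the windows of RefSeq transcription starts (GRCm38.p6) were searched on both strands for the ARE letters TGACNNNGC and for the CCAAT box, in the 250 bases before the start. Of the 47 genes, 39 had such a window. The ARE letters were present in 5 of 39 genes (12.8%) and in 11.5% of 27025 genes in the whole promoter table, and the CCAAT letters were present in 14 of 39 (35.9%) and in 37.5%. Among the structural subunits, the shares were 16% and 40% of 25 genes. The motif shares of proteasome genes therefore lay close to those of all promoters. The 100 bases nearest to the annotated gene start are shown, 5′ to 3′, for 6 of the genes that differed between the groups below and for the catalytic subunits Psmb5 and Psmb6, whose windows held the ARE letters, with motif letters in capitals.
Psmb3 (chr11:97703299-97703398, plus strand): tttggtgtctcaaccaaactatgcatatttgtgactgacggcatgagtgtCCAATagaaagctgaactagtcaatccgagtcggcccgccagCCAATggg
Psmd4 (chr3:95042615-95042714, minus strand): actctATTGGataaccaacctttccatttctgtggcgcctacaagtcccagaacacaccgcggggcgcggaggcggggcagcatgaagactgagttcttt
Psma6 (chr12:55384122-55384221, plus strand): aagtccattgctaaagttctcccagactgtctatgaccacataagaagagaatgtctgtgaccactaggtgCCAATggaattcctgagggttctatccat
Psmc1 (chr12:100110054-100110153, plus strand): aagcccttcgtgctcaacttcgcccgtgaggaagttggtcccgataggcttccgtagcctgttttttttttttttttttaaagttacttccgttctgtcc
Psmc6 (chr14:45329688-45329787, plus strand): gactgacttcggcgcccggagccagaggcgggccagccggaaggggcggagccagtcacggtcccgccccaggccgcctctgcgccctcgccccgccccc
Psme4 (chr11:30771626-30771725, plus strand): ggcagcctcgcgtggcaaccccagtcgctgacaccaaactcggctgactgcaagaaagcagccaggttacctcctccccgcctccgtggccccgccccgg
Psmb5 (chr14:54618023-54618122, minus strand): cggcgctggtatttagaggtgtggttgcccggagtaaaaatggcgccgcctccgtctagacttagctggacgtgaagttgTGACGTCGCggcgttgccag
Psmb6 (chr11:70525257-70525356, plus strand): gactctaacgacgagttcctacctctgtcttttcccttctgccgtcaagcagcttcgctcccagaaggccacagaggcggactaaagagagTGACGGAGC
In the full 250 bases, 3 of the 4 genes that rose in HF + AD mice (Psmb3, Psmd4 and Psmc1) and 1 of the 3 that fell (Psma6) had the CCAAT letters; those of Psmc1 lay farther from the start than the bases shown. The ARE letters were found in Psmc6, which fell, outside the bases shown, and in Psmb5, Psmb6, Psmd9 and Psmd12, which did not pass the test.

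Total counts per library lay between 9746937 and 11688979 in AD mice and between 10726845 and 13462434 in HF + AD mice, and genes with a count numbered 13100 to 15063 and 15522 to 16677. The number of counts per sequenced molecule, estimated from the excess of zeros among moderately expressed genes, was 12 to 32.2 in AD and 3.86 to 7.29 in HF + AD libraries, without overlap, so a property of the libraries that limits precision cannot be told apart from the diet. The libraries of HF + AD mice 1 and 2 stood apart from the other 5 in several genes below, and results are therefore also given without both. These libraries also had the fewest counts per molecule (4.07 and 3.86) and the most genes with a count (16677 and 16647) of all libraries. They thus lay farthest from the AD libraries in these properties, whose part in their values was not tested. The keratinocyte markers (7 of 8 in the files) summed to 3340 to 5870 counts scaled to library size (CPM) in AD and to 5770 to 10000 CPM in HF + AD mice, with 2 of 7 called higher; the hair shaft markers (7 of 7) to 2280 to 5110 and 3770 to 6260 CPM, with 3 called higher; and the skeletal muscle markers (10 of 10) to 1260 to 2770 and 763 to 2020 CPM, with 2 called lower. Over all genes tested, 9.2% were called. No tested marker was called in the lists of adipocytes, fibroblasts, macrophages and dendritic cells, mast cells, neutrophils, T cells and the interferon response. No marker of these lists found in the files was at 0 in all libraries. The part of these shifts in the values below was not tested.

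To determine whether the high-fat diet moved the proteasome genes, all 14163 genes that passed the low-count filter were fitted with edgeR's quasi-likelihood test, and a gene was called at a Benjamini-Hochberg adjusted p under 0.05. Of the 45 proteasome genes tested, 4 were higher in HF + AD mice (Psmb3, Psmc1, Psmd4 and Psmd13) and 3 were lower (Psme4, Psma6 and Psmc6). This is 15.6% of those tested, where 9.2% of all genes were called, 4.43% higher and 4.77% lower. These shares were not matched for level, and all genes include those near the low-count filter. When at least 10 counts were required in every library, 8 of 45 proteasome genes were called, where 14.4% of 10814 genes were called. At an unadjusted p under 0.05, 10 were higher and 5 lower, where 25.1% of all genes passed. The groups did not overlap for 3 of the 45 genes (6.67%), namely Psmb3, Psmd4 and Psme4, against 5.46% of all genes (2.9% higher and 2.56% lower). The median log2 fold change of the 45 genes was 0.07, beside 0.02 for all genes, and their interquartile range was 0.46 beside 0.74. The structural subunits, of which 6 of 31 were called, had a median of 0.12. In bulk skin, fewer cells of a type and less RNA per cell cannot be told apart. Calls in opposite directions occurred inside the same subcomplex, as for Psmc1 and Psmc6 of the ATPase ring. Without HF + AD mice 1 and 2, 1 of 45 genes was called (Psmd4), where 1.51% of all genes were called. With a correction for GC content 3 were higher and 3 lower, where 9.45% of all genes were called.

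**Figure D1:**
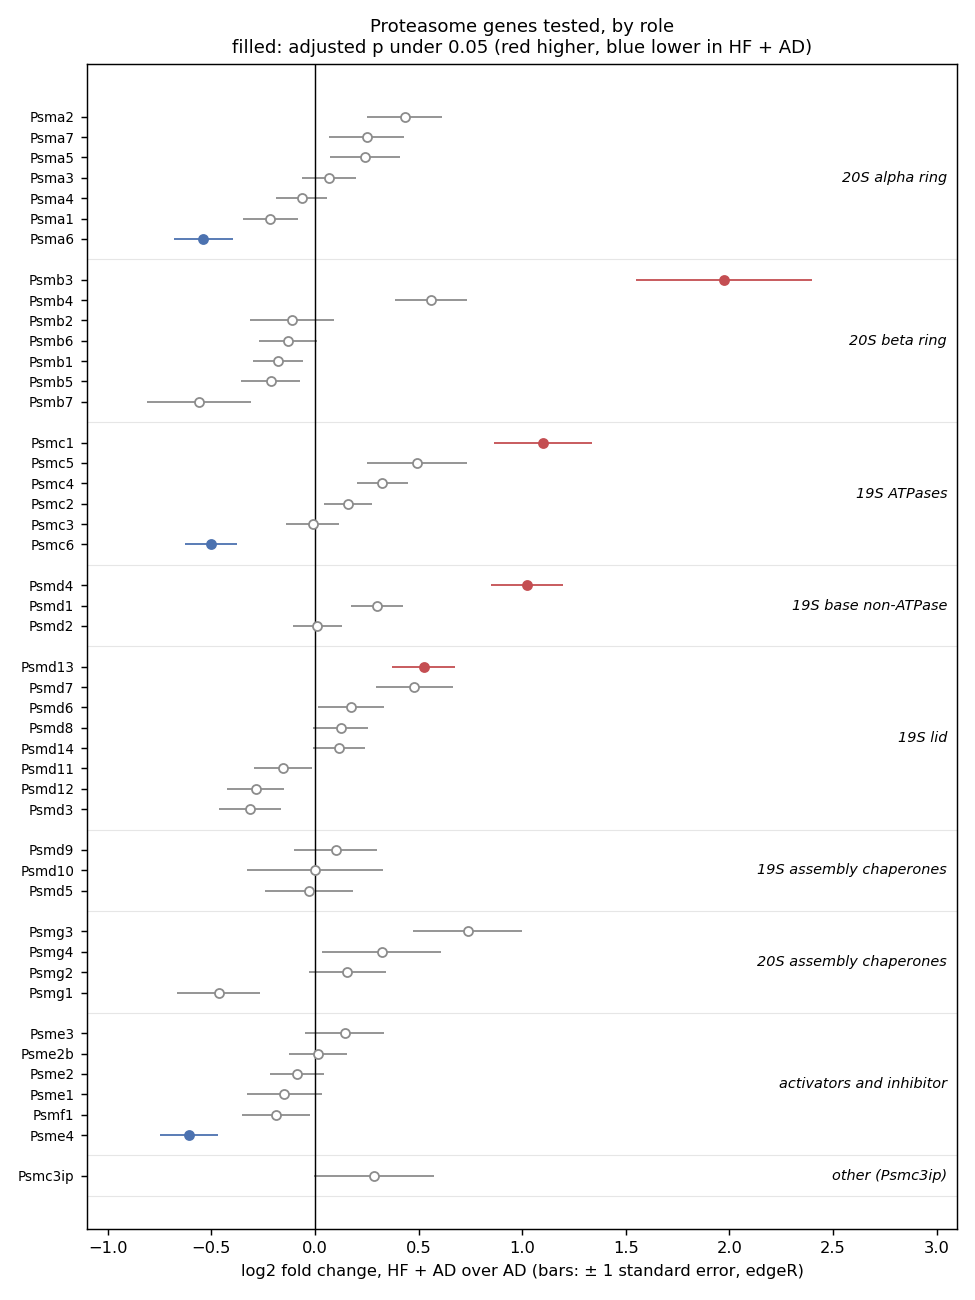
Log2 fold change of HF + AD over AD skin (x axis) with 1 standard error from edgeR for the 45 proteasome genes tested, grouped by role (y axis). The 7 filled points passed the adjusted threshold, 4 to the right and 3 to the left of 0, and Psmb3 lies farthest right at 1.98 with the widest error bar.

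Of the 7 alpha ring genes tested, 1 was called. Psma6, a subunit of the outer rings that frame the gate of the core, was at 328, 425, 324, 322 and 446 CPM in the AD mice and at 203, 242 and 343 CPM (lowest, median, highest) in the 7 HF + AD mice. All HF + AD mice but mouse 5 lay below every AD mouse. The level fell by 0.54 on the log2 scale (SE 0.14, adjusted p = 0.0264; two-sided exact permutation p = 0.00758). The call rested on the full set of mice, since it was lost in 6 of 12 fits that each left out 1 mouse (AD mice 2 and 5, HF + AD mice 1, 2, 4 and 6) and without HF + AD mice 1 and 2 together (log2 fold change −0.46, adjusted p = 0.122). Psma2, the ring's gene with the highest fold change, ranged from 166 to 203 CPM in AD and from 185 to 389 CPM in HF + AD mice, with the highest values in HF + AD mice 1 (389) and 2 (291). Its log2 fold change of 0.43 (SE 0.18) did not pass (adjusted p = 0.142) and was 0.20 without those 2 mice. The remaining 5 ring genes had log2 fold changes between −0.22 (Psma1) and 0.25 (Psma7). Psma8, an alpha subunit of the testis, was not tested and had no counts in the AD mice, a single count in HF + AD mouse 1 and 4 in HF + AD mouse 6.

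The largest fold change of the whole family was found in the beta ring. Psmb3, a structural subunit of this ring without an active site, was at 13, 10.8, 10.5, 13.1 and 16.8 CPM in the AD mice and at 99.3, 107, 17.6, 39.8, 18.9, 32.6 and 38.6 CPM in HF + AD mice 1 to 7. Every HF + AD value exceeded the highest AD value, but mice 1 and 2 were far above the others, and mice 3 and 5 only just passed it. The log2 fold change was 1.98 (SE 0.42, 3.93-fold, adjusted p = 0.0118; exact permutation p = 0.00505). It was called in each of the 12 fits that left out 1 mouse (1.67 to 2.12), and without both mice 1 and 2 it was 1.2 with an adjusted p of 0.053. The call was also lost with voom and sample quality weights (1.64, adjusted p = 0.154). Psmb3 was read from 104 to 186 counts in AD libraries, which at the estimated counts per molecule stand for only 3.56 to 15.5 molecules. It also has 3 near-identical genes (AC114990.1, Gm4950 and Gm5356) that are not separate entries in the files, so reads of these copies could not be separated. Psmb4, another subunit without an active site, lay just outside the threshold and was chosen for mention after its values were seen. It had a log2 fold change of 0.56 (SE 0.17, adjusted p = 0.053) and was called under 7 of 23 alternatives.

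The 3 catalytic genes of the beta ring did not pass the test. Psmb5, which encodes the chymotrypsin-like subunit, was at 123 to 221 CPM (median 183) in AD and at 125 to 177 CPM (median 148) in HF + AD mice, with a log2 fold change of −0.21 (SE 0.14, adjusted p = 0.385). Psmb6, the caspase-like subunit, was at 141 to 237 CPM and 134 to 184 CPM (−0.13, SE 0.14, adjusted p = 0.621). Psmb7, the trypsin-like subunit, split the HF + AD group. It was at 366 to 574 CPM in the AD mice, at 170, 168 and 219 CPM in HF + AD mice 1, 2 and 4, and at 335 to 518 CPM in the other 4. HF + AD mouse 6 (335) was also below every AD mouse, while mice 3, 5 and 7 lay inside the AD range. The log2 fold change of −0.56 (SE 0.25, adjusted p = 0.174) did not pass. Psmb7 overlaps Nek6 on the opposite strand, and whether counting used the strand is not given in the sources used here. The thymus subunit Psmb11 had between 0 and 24 counts per library and was not tested.

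Among the 6 ATPase genes, Psmc1 rose and Psmc6 fell, although both products are arranged in a single ring at the base of the 19S particle. Psmc1 was at 64.6, 64.2, 50, 116 and 128 CPM in the AD mice and at 121, 176 and 251 CPM (lowest, median, highest) in the HF + AD mice. Only HF + AD mouse 5 fell within the AD range, while AD mice 4 and 5 lay well above the other 3. Its log2 fold change was 1.10 (SE 0.24, 2.14-fold, adjusted p = 0.012; exact permutation p = 0.00253), called in each of 12 fits without 1 mouse (0.95 to 1.31), and it was 0.97 (adjusted p = 0.0673) without HF + AD mice 1 and 2. Psmc1 has near-identical copies (AC110212.1 and Gm9575) that are not entries in the files. Psmc6 was at 320, 375, 355, 277 and 245 CPM in the AD mice and at 199, 215 and 258 CPM in the HF + AD mice, and 6 of the 7 lay below every AD mouse. It fell by 0.50 on the log2 scale (SE 0.13, adjusted p = 0.0223; exact permutation p = 0.00253), and the call was lost only without AD mouse 2 among the 12 fits that left out 1 mouse (−0.43). It was also lost with voom and sample quality weights (−0.41, adjusted p = 0.066) and without HF + AD mice 1 and 2 (−0.45, adjusted p = 0.11). The remaining 4 ATPase genes had log2 fold changes between −0.01 (Psmc3) and 0.49 (Psmc5), and none was called.

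Psmd4 was higher in every HF + AD mouse than in any AD mouse and was the gene called under most alternatives. It encodes a ubiquitin receptor of the 19S base that binds the chains of substrates. Its level was 237, 163, 189, 180 and 223 CPM in the AD mice and 595, 417, 313, 476, 309, 346 and 363 CPM in HF + AD mice 1 to 7. The lowest HF + AD mouse (309) was above the highest AD mouse (237), so 7 of 7 HF + AD values lay above the AD range. The log2 fold change was 1.02 (SE 0.17, 2.03-fold, adjusted p = 0.00471), and the exact permutation p of 0.00126 is the smallest that splits of 12 mice into 5 and 7 can give. Psmd4 was called under all 23 alternatives (0.86 to 1.10), among them the fit without HF + AD mice 1 and 2 (0.87, adjusted p = 0.0164), and it has no near-identical or overlapping gene in the annotation (chr3:95032694-95042614, minus strand). The scaffold subunits of the base did not pass: Psmd2 had a log2 fold change of 0.01 (SE 0.12, adjusted p = 0.968), which turned negative in some fits, and Psmd1 had 0.30 (SE 0.13, adjusted p = 0.143).

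Of the 8 lid genes, 1 was called. Psmd13, a structural subunit of the lid, was at 204, 260, 273, 238 and 194 CPM in the AD mice and at 268, 314 and 476 CPM in the HF + AD mice, with 5 values above the AD range. It rose by a log2 fold change of 0.52 (SE 0.15, adjusted p = 0.0426; exact permutation p = 0.00631). This call was close to the threshold. It was lost in 9 of 12 fits without 1 mouse (the exceptions left out number 3 of either group or number 5 of the HF + AD group), with the GC correction (0.36, adjusted p = 0.145), with voom and sample quality weights (0.51) and without HF + AD mice 1 and 2 (0.38, adjusted p = 0.184). Psmd13 overlaps Sirt3 on the opposite strand, where reads of both genes may not be told apart. Psmd3, the lid gene with the lowest value, was at 239 to 348 CPM in AD and 173 to 270 CPM in HF + AD mice (−0.31, SE 0.15, adjusted p = 0.2). Psmd14, which encodes the deubiquitinase of the lid, was at a log2 fold change of 0.12 (SE 0.13, adjusted p = 0.624).

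**Figure D2:**
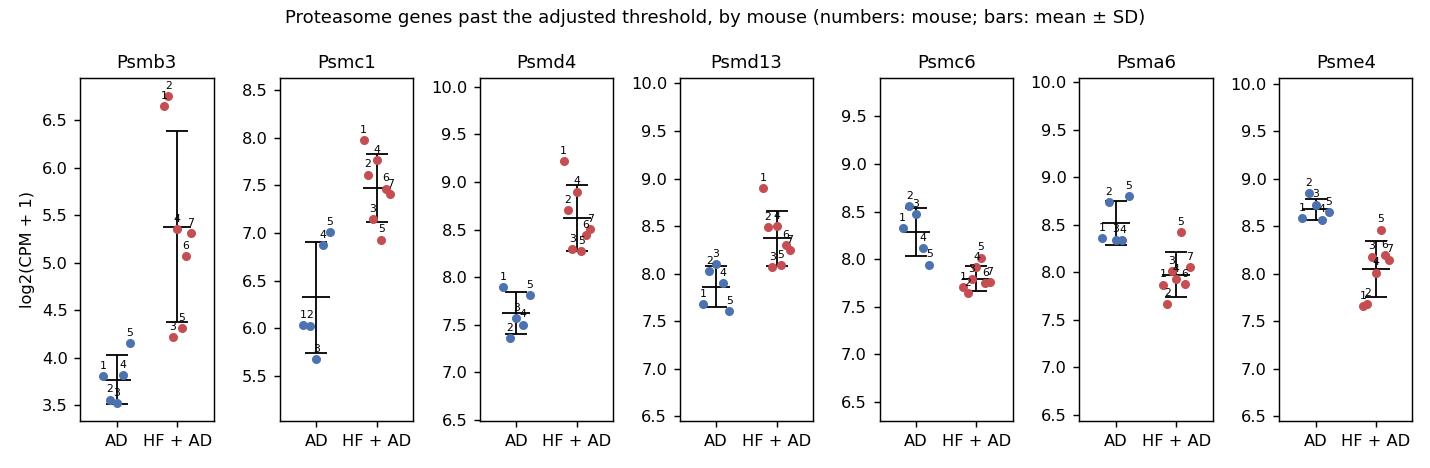
Log2(CPM + 1) (y axis, each panel spanning the same number of units) of the 7 called proteasome genes in every mouse of the AD (n = 5) and HF + AD (n = 7) groups, with mouse numbers beside the points and bars for the mean ± SD. The groups are separate for Psmb3, Psmd4 and Psme4 and overlap by 1 or 2 HF + AD mice in the other panels.

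No assembly chaperone passed the test. Of the 4 chaperones of the 20S core, Psmg3 was at 11.9 to 22.5 CPM in AD and 16.8 to 43.7 CPM in HF + AD mice (log2 fold change 0.74, SE 0.26, adjusted p = 0.0878), and Psmg1 was at 51.3 to 117 and 36.9 to 69.9 CPM (−0.46, SE 0.20, adjusted p = 0.154). Both ranges overlapped, and for Psmg1 only AD mouse 2 (117) lay far above the other mice. The 3 chaperones of the 19S base lay close to 0, from −0.03 (Psmd5, SE 0.21) to 0.10 (Psmd9, SE 0.20).

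Psme4 was the only one of the activator and inhibitor genes that was called. It encodes PA200, an activator that caps the core in place of the 19S particle. Its level was 382, 460, 423, 379 and 401 CPM in the AD mice and 201, 205, 289, 257, 352, 293 and 283 CPM in HF + AD mice 1 to 7. All 7 HF + AD mice lay below the lowest AD mouse (379), with mice 1 and 2 the lowest. Psme4 fell by 0.61 on the log2 scale (SE 0.14, adjusted p = 0.0157; exact permutation p = 0.00379), was called in each of the 12 fits without 1 mouse (−0.68 to −0.55), and was at −0.47 (adjusted p = 0.0667) without HF + AD mice 1 and 2. The genes of the interferon-inducible activator, Psme1 (−0.15, SE 0.18, adjusted p = 0.67) and Psme2 (−0.09, SE 0.13, adjusted p = 0.731), were not called. Neither was the nuclear activator gene Psme3 (0.14, SE 0.19, adjusted p = 0.697) nor the inhibitor gene Psmf1 (−0.19, SE 0.16, adjusted p = 0.515). Psme2 and Psme2b are near-identical, and their reads may have been divided between them. Psmc3ip was at a log2 fold change of 0.29 (SE 0.29, adjusted p = 0.592).

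The summed level of the structural subunits overlapped between the groups. It was 6560, 6850 and 7360 CPM (lowest, median, highest) in AD and 6700, 7100 and 8170 CPM in HF + AD mice, and the 47 genes together made up 0.742 to 0.834% and 0.790 to 0.903% of all counts. HF + AD mouse 1 had the highest sum (8170 CPM) and the highest level of 10 of the 31 subunits, followed by AD mouse 5 with 7 and HF + AD mouse 4 with 5. AD mouse 3 had the lowest level of 7 subunits. Within a group, the subunits had a median SD of 0.25 in AD and 0.18 in HF + AD mice on the log2 scale, beside 0.53 and 0.33 for all genes. Psmb3 in the HF + AD group (SD 1.01) and Psmc1 in the AD group (SD 0.58) varied most. The comparison with all genes was not matched for level. All genes include those near the low-count filter, where counting noise is larger, so it does not show that the subunits are held more tightly. Of the summed levels by role, only that of the non-ATPase base genes did not overlap between the groups. It was 645 to 919 CPM in AD and 927 to 1310 CPM in HF + AD mice. For its 3 genes, group means were 198 and 403 CPM for Psmd4, 292 and 360 for Psmd1 and 282 and 284 for Psmd2. The difference in this sum was thus mostly that of the called gene Psmd4. The sum of the activators and inhibitor was 881 to 971 and 708 to 884 CPM, of which Psme4 had means of 409 and 268 CPM.

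**Figure D3:**
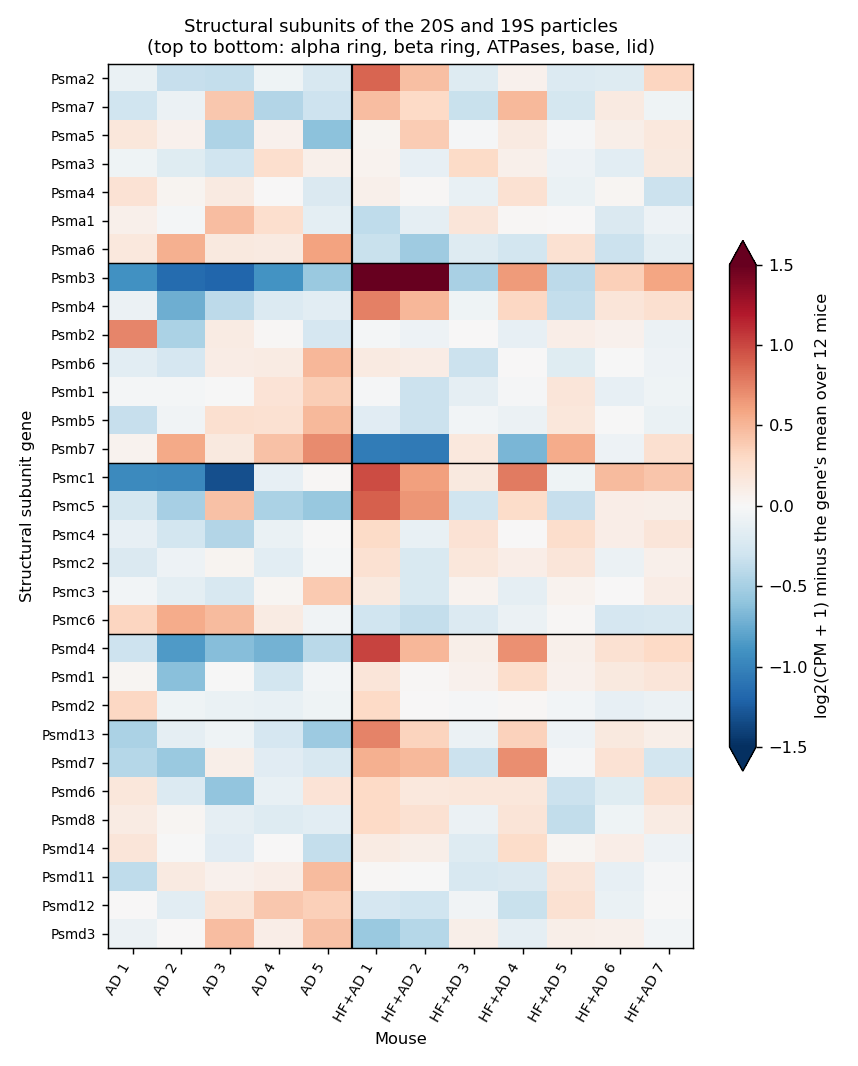
Level of the 31 structural subunit genes (rows, by subcomplex) in each of the 12 mice (columns, AD left and HF + AD right of the line), as log2(CPM + 1) minus the gene's mean over all mice, in red above and blue below the mean. The deepest reds are those of Psmb3 in HF + AD mice 1 and 2, where Psmb7 is low. Deep blues also lie in the AD columns, for Psmb3 and Psmc1.

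Ratios of counts within a library do not depend on how libraries are scaled. For each subcomplex, the gene with the highest fold change was divided by that with the lowest, together with Psmd4 over Psme4, and since these pairs were chosen by their fold changes the ratios are a description without a test. Psmc1 over Psmc6 was 0.141 to 0.522 (median 0.202) in AD and 0.468 to 1.21 (median 0.823) in HF + AD mice. Psmb3 over Psmb7 was 0.0206 to 0.0355 in AD and 0.0365 to 0.635 in HF + AD mice, and its highest values were those of HF + AD mice 2 (0.635) and 1 (0.586). Psmd4 over Psmd2 was 0.607 to 0.83 and 1.13 to 1.71, and Psmd4 over Psme4 was 0.355 to 0.62 and 0.879 to 2.96. The ratios of Psmb3 over Psmb7, Psmd4 over Psmd2 and Psmd4 over Psme4 did not overlap between the groups, and those of the other 4 pairs did.

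**Figure D4:**
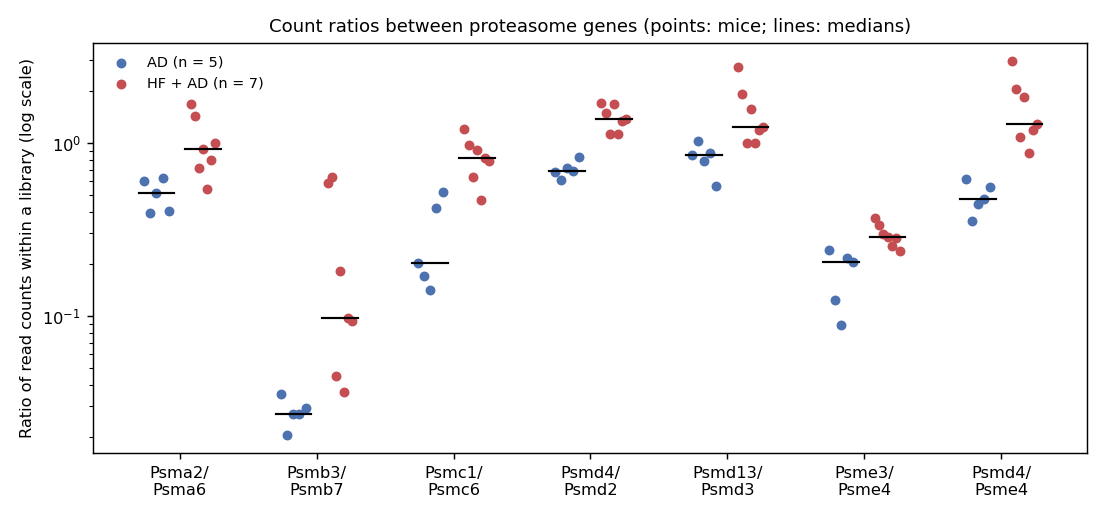
Ratio of read counts of 2 proteasome genes within a library (y axis, log scale) for 7 pairs (x axis) in AD (blue, n = 5) and HF + AD mice (red, n = 7), with a line at each median. Psmb3/Psmb7, Psmd4/Psmd2 and Psmd4/Psme4 have no overlap between the groups, and Psmb3/Psmb7 spreads most, from 0.0365 to 0.635 in HF + AD mice.

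Genes that work with the proteasome but lie outside the symbol rule were examined from a list of 35 genes, of which 34 were found and 33 tested. Of these, 2 were higher and 2 lower, or 12.1% of those tested beside 9.2% of all genes, and the median log2 fold change of the list was −0.21 beside 0.02 for all genes. Neither comparison was matched for level. Nsfl1c, a cofactor of the VCP segregase, rose from 5.56 ± 0.11 (SD, n = 5) to 6.51 ± 0.60 (SD, n = 7) log2(CPM + 1) (log2 fold change 1.06, SE 0.25, edgeR adjusted p = 0.0164). Of the inducible subunits, Psmb8 fell by 0.95 (SE 0.19, adjusted p = 0.0096) and Psmb10 by 0.52 (SE 0.15, adjusted p = 0.0446), and Psmb9 was at 1.27 (SE 0.45, adjusted p = 0.0835). Psmb8 over Psmb5, its constitutive counterpart, had a median of 0.612 (0.594 to 1.24) in AD and 0.449 (0.332 to 0.726) in HF + AD mice, that of Psmb9 over Psmb6 was 0.0199 (0.0132 to 0.0654) and 0.0724 (0.0331 to 0.133), and that of Psmb10 over Psmb7 was 0.161 (0.144 to 0.283) and 0.2 (0.103 to 0.315). The ranges of all 3 ratios overlapped. Psmb9 had only 108, 18, 65, 40 and 52 counts in AD mice 1 to 5. At the estimated counts per molecule, these stand for few molecules, which limits its fold change and ratio. The transcription factor genes Nfe2l1 (0.10, SE 0.15, adjusted p = 0.752) and Nfe2l2 (−0.01, SE 0.18, adjusted p = 0.982) and the core chaperone gene Pomp (−0.19, SE 0.11, adjusted p = 0.316) were not called. Without HF + AD mice 1 and 2, Psmb8 was at −0.81 (adjusted p = 0.0521), Nsfl1c at 0.71 (adjusted p = 0.0803) and Psmb10 at −0.43 (adjusted p = 0.202), and Psmb10 was called in 8 of 23 alternatives and in 2 of the 12 fits that left out 1 mouse.

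The direction of change was also set beside the GC content of the transcripts. The 4 genes that rose had a GC content of 49.5 to 54.4% (median 53.6%), and the 3 that fell had 37.0 to 46.6% (median 43.9%), while the 45 genes tested had a median of 49.7%. Spearman's rho between log2 fold change and GC content was 0.26 over these 45 genes and 0.16 over 14055 genes, which share the same libraries and are not independent replicates. After each library's trend with GC content was corrected, Psmd4 was at 0.86 (adjusted p = 0.00641), Psmb3 at 1.81 (adjusted p = 0.0137), Psmc1 at 1.04 (adjusted p = 0.0144), Psme4 at −0.56 (adjusted p = 0.02), Psma6 at −0.55 (adjusted p = 0.0259) and Psmc6 at −0.40 (adjusted p = 0.0449). Of the 7 calls, 6 were made with this correction, and that of Psmd13 was lost. Among all called genes, the share that was higher was 48.1%, 35.0% with the GC correction and 59.1% with library totals alone, and among the proteasome genes the split of higher and lower calls was 4 and 3, 3 and 3, and 5 and 3.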

How the data were processed

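QuantSeq 3′ mRNA libraries, 1 for each of 12 mice, were sequenced on a NextSeq 500, and groups follow the labels. The deposited values are unnormalized counts of reads by gene symbol, in a file for each mouse. Bowtie2, bedtools and the mm10 build are named in the submitters' processing notes without versions, and whether counting used the strand or removed duplicates is not given in the sources used here. Members and lists were chosen with earlier results of these data known.

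Counts were fitted with edgeR 4.0.16 in R 4.3.3 (TMM, filterByExpr, quasi-likelihood test with condition only, Benjamini-Hochberg over 14163 genes, threshold 0.05). Fold changes in brackets are log2. Levels are CPM on TMM-scaled totals, and the exact permutation test used log2(CPM + 1), over all splits into 5 and 7 mice, two-sided. Genes were named if called, if highest or lowest in their role, or as catalytic subunits or activators. In the pathway list, those called and 6 fixed genes were named, except 1 called gene that is counted but not reported here. If each count were a separate molecule, a count of 0 would allow 3 counts per library, 0.223 to 0.308 CPM, for counting error only. Molecular identifiers are not described, and at the estimated 3.86 to 32.2 counts per molecule the limit would be higher. Counts per molecule were estimated from the share of zeros at genes where the rest of the group predicts 10 to 200 counts, assuming each molecule was copied equally. Alternatives were DESeq2 1.42.0 (Wald test and size factors), limma 3.58.1 (limma-trend, voom with sample quality weights), library totals, 2 filters, a replicate block, a robust prior, GC correction in 20 bins and leaving out each mouse. Leaving out HF + AD mice 1 and 2 together was added after the data were seen. Positions, GC content, overlaps and copies (BLAST+ 2.17.0, at least 95% identity over 200 bases) are from GENCODE M21 on GRCm38, the same build as mm10. The fit, the GC correction and the estimate of counts per molecule were run on simulated data. Counts simulated for the fit and the GC correction had the same dispersion in both groups and no copied molecules. They therefore do not show how these steps perform on libraries like those used here.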

Additional observations from a re-analysis of the deposited data

Results flagged for a closer look

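Psmd2, the scaffold subunit gene of the 19S base, had 1 mouse apart from the rest in each group. AD mouse 1 was at 8.45 log2(CPM + 1), where the nearest of the other 4 AD mice was at 8.08, a gap of 0.897 of the group's range (critical value 0.71). HF + AD mouse 1 was at 8.44, where the nearest of the others was at 8.16, a gap of 0.657 of the range (critical value 0.568). A total of 44 groups, 22 genes in 2 groups, were examined, and chance alone marks about 1 in 20. AD mouse 1 also had the highest summed levels of the neutrophil (3700 CPM) and adipocyte markers (641 CPM). The same held for its macrophage and dendritic cell markers (452 CPM), T cell markers (19.9 CPM) and counts per molecule (32.2). HF + AD mouse 1 had the highest sum of the keratinocyte markers (10000 CPM). The part of these in Psmd2 was not tested.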

How the results depend on the processing

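Over all genes, the 1303 calls became 192 with a replicate block, 766 with voom and sample quality weights, and 208 without HF + AD mice 1 and 2. They became 1339 (9.45% of genes tested) with the GC correction and 1945 (13.7%) with DESeq2's Wald test. With at least 10 counts in every library they were 1552 (14.4% of 10814 genes). With 1 mouse left out, they were 639 to 1461. The 7 proteasome calls became 1 with the block, 4 with voom and 1 without HF + AD mice 1 and 2, and 4 to 8 with 1 mouse left out. Both the block and the smaller group leave fewer residual degrees of freedom. The 4 pathway calls became 1 with the block, 7 with the GC correction, 11 with DESeq2's Wald test, 1 without HF + AD mice 1 and 2, and 3 to 7 with 1 mouse left out. Same-numbered mice of the 2 groups correlated at −0.08 to 0.04 in their deviations, which gave no sign that the numbers pair the mice. Weak correlations cannot exclude shared handling of same-numbered mice. The proteasome gene called with the block was Psmd4. Of 23 alternatives, 10 called all 7 of the same proteasome genes, and all the exact permutation alternatives stayed under 0.05 for these 7. Signs were followed for the 22 proteasome genes and 8 pathway genes named by rule, not for the others, and 7 uncalled genes among them changed sign. Psmd2 was at −0.12 with the GC correction, −0.05 without HF + AD mice 1 and 2 and −0.043 to 0.10 with 1 mouse left out. Psmd5 was at 0.011 with library totals and −0.13 to 0.10 with 1 mouse left out. Psmd9 was at −0.021 with voom, and Nfe2l1 at −0.062 with the GC correction. Nfe2l2 was at 0.028 with library totals, 0.034 with the block, 0.038 with limma-trend, 0.015 with voom and −0.15 to 0.14 with 1 mouse left out. With 1 mouse left out, Psmb6 reached from −0.20 to 0.004 and Psme3 from −0.019 to 0.26. The median of all genes was 0.02, and it was 0.12 without a filter, 0.14 with the block, 0.15 with limma-trend and 0.12 with voom. The few molecules behind AD libraries limit Psmb3, Psmg3, Psmb9 and other low genes. The causes were not tested.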
